A study of Mus musculus with 8 samples.

Results

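The 10 immediate early genes examined here were *Fos*, *Fosb*, *Jun*, *Junb*, *Jund*, *Egr1*, *Egr2*, *Ier2*, *Arc* and *Npas4*. Each was taken from the array's transcript cluster, a set of probes assigned to 1 transcribed region, that the platform annotation names with that symbol alone, and where several did, from the cluster of the highest mean over the 8 arrays. By this rule 9 of the 10 were measured, of 30176 symbols in all. *Junb* lies only on a cluster shared with *Prdx2* and was not analysed here. The RNA came from whole spinal cords of C57Bl/6J mouse embryos at E14.5, dissected and snap frozen, 4 from *Nfix*-/- embryos, homozygous for a knockout of the transcription factor gene *Nfix*, and 4 from *Nfix*+/+ embryos. The embryos came from matings of heterozygous parents and were genotyped by PCR, and no other treatment is given. The *Nfix*-/- genotype is that of the whole embryo and not of 1 cell type. The methods call the controls littermates, but the part of the gene that was deleted, the sex of the embryos and which of them shared a litter are not given in the sources used here. The titles call the 4 arrays of a genotype biological replicates 1 to 4, and the p-values below measure the spread between them.

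Immediate early genes are transcribed within minutes of a stimulus and need no new protein for it, because the factors that switch them on, such as SRF with its partners and CREB, are already bound or ready in the cell. FOS and JUN proteins pair through leucine zippers into the AP-1 transcription factor, EGR proteins bind DNA through zinc fingers, and *Arc* and *Npas4* are induced by activity in neurons. In nervous tissue their RNA rises with growth factors, calcium entry, injury and handling, and it is lost again quickly. In a dissected cord their level can therefore differ from embryo to embryo with the time and the way of dissection, neither of which is recorded in the labels.

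*Nfix* itself was lower in all 4 *Nfix*-/- arrays, at 8.81 to 8.90 on the log2 scale against 9.18 to 9.36 in *Nfix*+/+. Genes that mark neurons (4 of 4), neural progenitors (4 of 5) and the trunk position of the cord (3 of 3 measured *Hox* genes) exceeded the 95th percentile of negative-control probe sets on at least 4 arrays, and the forebrain genes *Emx2* and *Lhx2* were not on any. That percentile lay at 7.27 to 7.59 on the 8 arrays. *Nfix*+/+ replicate 2 stood apart from the rest, with a negative-control median of 4.88 against 4.33 to 4.60 on the other 7, and results that rest on it are given without it as well. In RNA of a whole cord, fewer cells that express a gene and less of its RNA per cell cannot be told apart.

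The stretches before the transcription starts are shown for 4 members: *Fos*, to which the other members are compared below, *Jun*, a partner of FOS proteins, *Fosb*, the member that passed the genotype test, and *Egr2*, the member whose genotypes did not overlap. Each runs 5′ to 3′ on the gene's strand from 250 bases before the start to 50 after it, from RefSeq on GRCm38.p6, for which windows of 7 of the 10 genes were given. Capitals mark TGACG, the core of the cyclic AMP response element (CRE), TGACATCA, an AP-1 element, and the CArG box, the site of SRF, each searched on both strands.
*Fos*, chr12:85473640-85473939, plus strand: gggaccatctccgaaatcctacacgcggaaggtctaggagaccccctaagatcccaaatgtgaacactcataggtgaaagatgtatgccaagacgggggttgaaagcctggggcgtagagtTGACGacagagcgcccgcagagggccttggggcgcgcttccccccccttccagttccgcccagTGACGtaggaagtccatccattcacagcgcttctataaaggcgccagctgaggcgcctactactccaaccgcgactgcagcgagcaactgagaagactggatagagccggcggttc
*Jun*, chr4:95052173-95052472, minus strand: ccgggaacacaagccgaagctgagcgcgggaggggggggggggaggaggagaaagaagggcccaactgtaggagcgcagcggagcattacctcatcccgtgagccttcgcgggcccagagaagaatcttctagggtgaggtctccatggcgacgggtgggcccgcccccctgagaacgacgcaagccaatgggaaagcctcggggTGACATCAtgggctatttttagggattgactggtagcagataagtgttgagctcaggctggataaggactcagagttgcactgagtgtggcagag
*Fosb*, chr7:19309996-19310295, minus strand: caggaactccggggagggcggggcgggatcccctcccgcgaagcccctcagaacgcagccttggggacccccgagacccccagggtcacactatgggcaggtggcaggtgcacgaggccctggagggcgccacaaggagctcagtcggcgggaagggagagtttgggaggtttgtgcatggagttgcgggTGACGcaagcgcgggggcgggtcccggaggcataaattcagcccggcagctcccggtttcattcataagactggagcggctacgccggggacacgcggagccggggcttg
*Egr2*, chr10:67537619-67537918, plus strand: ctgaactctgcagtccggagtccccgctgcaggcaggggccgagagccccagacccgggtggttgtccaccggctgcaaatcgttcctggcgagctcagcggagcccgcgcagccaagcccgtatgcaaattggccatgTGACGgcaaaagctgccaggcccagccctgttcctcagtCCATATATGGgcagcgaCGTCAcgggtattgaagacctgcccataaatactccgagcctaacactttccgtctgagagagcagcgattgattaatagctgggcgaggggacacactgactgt
*Fos* held TGACG at positions -129 to -125 and -66 to -62 from the start, and *Fosb* held it at -60 to -56. *Egr2* held it at -111 to -107 and -55 to -51, and a CArG box at -72 to -63, and *Jun* held TGACATCA at -45 to -38. Among 32851 windows of this length in the same table, 20.8% held TGACG, 3.62% TGACATCA and 1.63% a CArG box. The full CRE, TGACGTCA, which contains TGACG, was in 1.79% of windows and the AP-1 site TGACTCA in 5.20%, and neither was in the 4 shown. RefSeq gives 5 start windows for *Egr2*, of which 4 held a CArG box and 3 held TGACG, and the 1 printed was chosen after its matches were seen. Such a match is a description of letters and says nothing of a factor bound there.

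Between the genotypes, *Fosb* was lower in *Nfix*-/- spinal cord and no other member passed the test. *Fosb* encodes an AP-1 subunit whose splice forms accumulate after repeated stimulation. Its log2 values were 5.75, 5.66, 5.87 and 5.68 in *Nfix*-/- replicates 1 to 4 and 6.13, 5.85, 6.08 and 5.93 in *Nfix*+/+ replicates 1 to 4. The groups overlapped at *Nfix*-/- replicate 3 and *Nfix*+/+ replicate 2, the lowest of its genotype. *Fosb* fell by 0.26 (standard error 0.0772, adjusted p = 0.0463 from limma, Benjamini-Hochberg over 65956 clusters), to 0.837 of the *Nfix*+/+ signal, with a two-sided exact permutation p of 0.0571. The call lay close to its threshold: it was lost on leaving out any of *Nfix*-/- replicates 1, 2 and 4 or *Nfix*+/+ replicates 1, 3 and 4 (adjusted p = 0.0732 to 0.117), and after median scaling, quantile normalization and the methods' t-test. *Fosb* was above the negative-control percentile on 0 arrays. The 1 call among 9 members is 11.1%, against 22.0% of all clusters called in either direction and 10.5% called lower. With the fold cut-off of 1.5 that the study's methods add, 0 members were called, against 2.05% of all clusters. Among clusters that never rose above the negative-control percentile, 12.9% were called lower.

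The other AP-1 members, *Fos*, *Jun* and *Jund*, had differences above 0 that did not pass. *Fos*, the partner that is nearly silent before a stimulus, had values of 6.48, 6.24, 6.37 and 6.10 in *Nfix*-/- and of 6.14, 6.38, 6.18 and 6.19 in *Nfix*+/+. The groups overlapped throughout, with the highest and the lowest array both in *Nfix*-/-. The log2 difference was 0.07 (95% interval -0.13 to 0.28, adjusted p = 0.614 from limma), and ran from 0.010 without *Nfix*-/- replicate 1 to 0.136 without *Nfix*-/- replicate 4. *Jun*, which pairs with FOS proteins or with itself, was at 8.39, 8.48, 8.44 and 8.18 in *Nfix*-/- and at 8.21, 8.46, 8.23 and 8.45 in *Nfix*+/+. Each genotype held arrays near 8.2 and arrays near the top of the range, and the difference was 0.04 (95% interval -0.17 to 0.24, adjusted p = 0.813), turning to -0.05 after quantile normalization and -0.06 after cyclic loess. *Jund*, a more steadily expressed *Jun* paralog that lies 14004 kb from *Nfix* on chromosome 8, was at 9.13, 9.03, 9.09 and 8.99 in *Nfix*-/- and at 8.83, 8.77, 8.99 and 9.04 in *Nfix*+/+. Of its *Nfix*+/+ arrays, replicates 1, 2 and 3 lay below all *Nfix*-/- arrays, replicate 3 only just, and replicate 4 did not. Its difference was 0.15 (standard error 0.0715, adjusted p = 0.157), or 0.0546 after quantile normalization and 0.0495 after cyclic loess, beside a median difference of 0.09 over the 11778 clusters above the negative-control percentile on at least 4 arrays. *Jun* and *Jund* were the members that passed that level on all 8 arrays.

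*Egr1* and *Egr2* encode related zinc finger factors, *Egr1* a general early response factor and *Egr2* a factor also needed for hindbrain segments and Schwann cell myelin. *Egr1* had the widest range of the 9 members, with values of 7.77, 7.23, 7.38 and 7.01 in *Nfix*-/- and of 7.08, 7.30, 7.21 and 7.22 in *Nfix*+/+. *Nfix*-/- replicate 1 was the highest and *Nfix*-/- replicate 4 the lowest of all 8. The difference was 0.15 (95% interval -0.19 to 0.48, adjusted p = 0.511 from limma), and 0.0060 without *Nfix*-/- replicate 1. The range was 0.762 in *Nfix*-/- and 0.220 in *Nfix*+/+. *Egr1* was above the negative-control percentile on 2 arrays. *Egr2* was at 6.57, 6.49, 6.51 and 6.42 in *Nfix*-/- and at 6.65, 6.60, 6.73 and 6.60 in *Nfix*+/+. Every *Nfix*-/- array lay below every *Nfix*+/+ array (p = 0.0286 by two-sided exact permutation, which no split of 8 arrays into equal groups can undercut). The difference was -0.15 (standard error 0.0529, adjusted p = 0.0787 from limma) and did not pass, although it did after cyclic loess (-0.19, adjusted p = 0.0257). In the other 14 of 15 alternatives it did not pass. *Egr2* was the 1 member without overlap, 11.1% of the 9, against 28.1% of all clusters.

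*Ier2*, *Arc* and *Npas4* had differences below 0 that did not pass. *Ier2* encodes a nuclear regulator of the early response, and its gene ends 41.9 kb from *Nfix* on chromosome 8 (GRCm38.p6, 84661331 to 84662852, with *Nfix* at 84704712 to 84801238). It was at 6.56, 6.42, 6.40 and 6.22 in *Nfix*-/- and at 6.49, 6.61, 6.57 and 6.71 in *Nfix*+/+, so the groups overlapped only through *Nfix*-/- replicate 1. The difference was -0.20 (standard error 0.0795, adjusted p = 0.111 from limma), and the effect of the altered allele on so near a gene cannot be told apart from other differences between the genotypes. *Arc*, whose protein acts at synapses on receptor uptake, was at 6.35, 6.30, 6.39 and 6.31 in *Nfix*-/- and at 6.53, 6.38, 6.58 and 6.52 in *Nfix*+/+. The groups overlapped only at *Nfix*+/+ replicate 2. The difference was -0.17 (standard error 0.0553, adjusted p = 0.0639), and -0.21 without that array (adjusted p = 0.0203). It also passed after cyclic loess (-0.20, adjusted p = 0.0202) and with array weights (-0.19, adjusted p = 0.0175). In the other 12 of 15 alternatives *Arc* did not pass, among them median scaling (-0.14, adjusted p = 0.232) and quantile normalization (-0.18, adjusted p = 0.144). *Npas4*, a factor induced by calcium in neurons, was at 5.97, 5.90, 5.83 and 5.77 in *Nfix*-/- and at 5.94, 5.87, 5.92 and 5.99 in *Nfix*+/+, with overlap and a difference of -0.06 (95% interval -0.19 to 0.07, adjusted p = 0.484). These 3 genes, like *Fos*, *Fosb* and *Egr2*, were above the negative-control percentile on 0 arrays, which does not show that they were unexpressed.

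**Figure D1:**
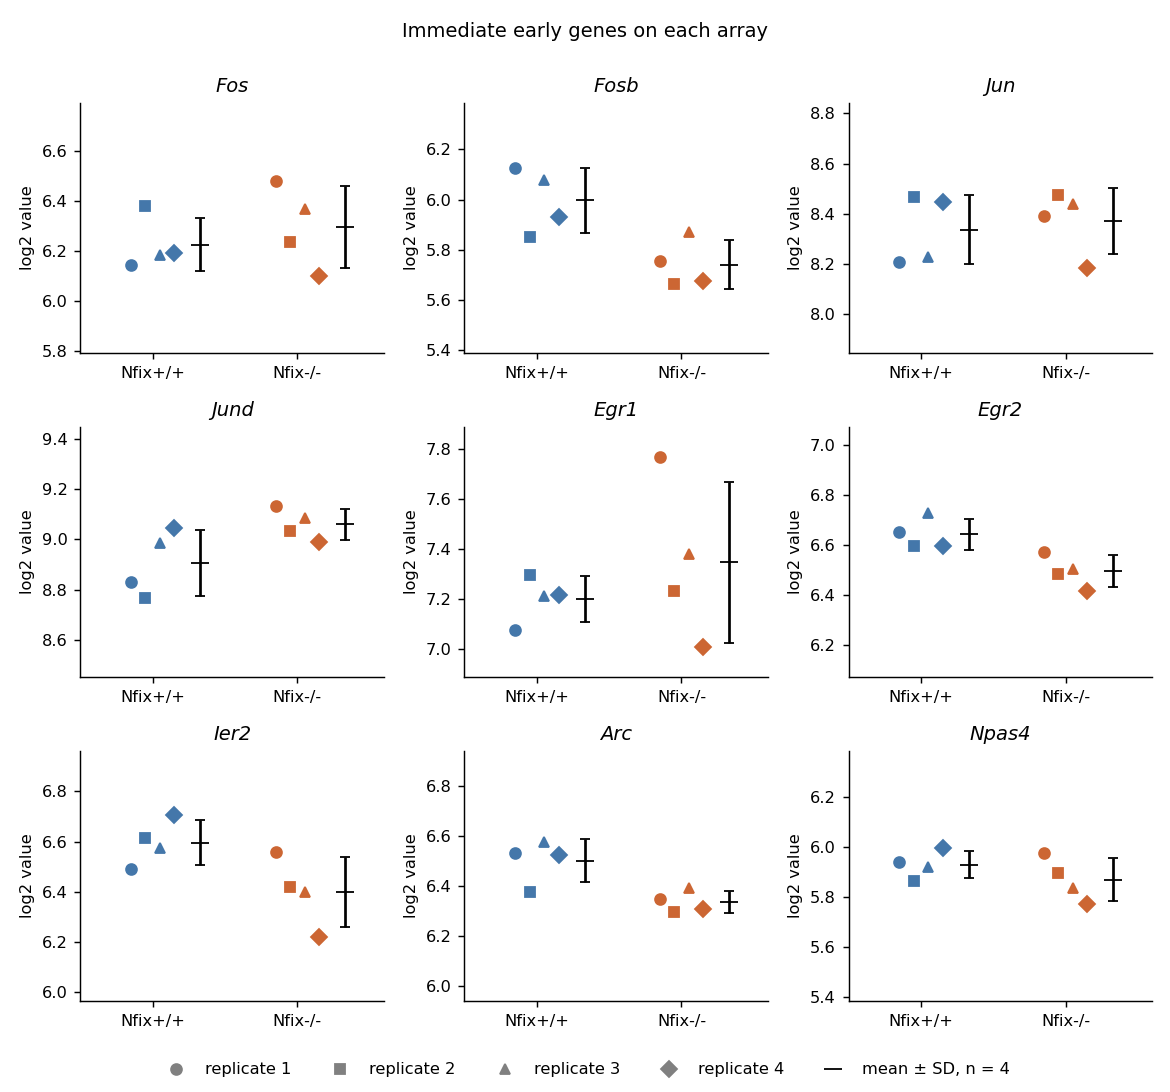
Log2 value (vertical axis, each panel 1 log2 unit high) of the 9 measured immediate early genes on each of the 8 arrays, by genotype (horizontal axis), with marker shape for the replicate and the mean ± SD (n = 4) in black. *Egr1* in *Nfix*-/- spreads from 7.01 to 7.77, while *Egr2* is the panel in which the genotypes do not overlap.

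**Figure D2:**
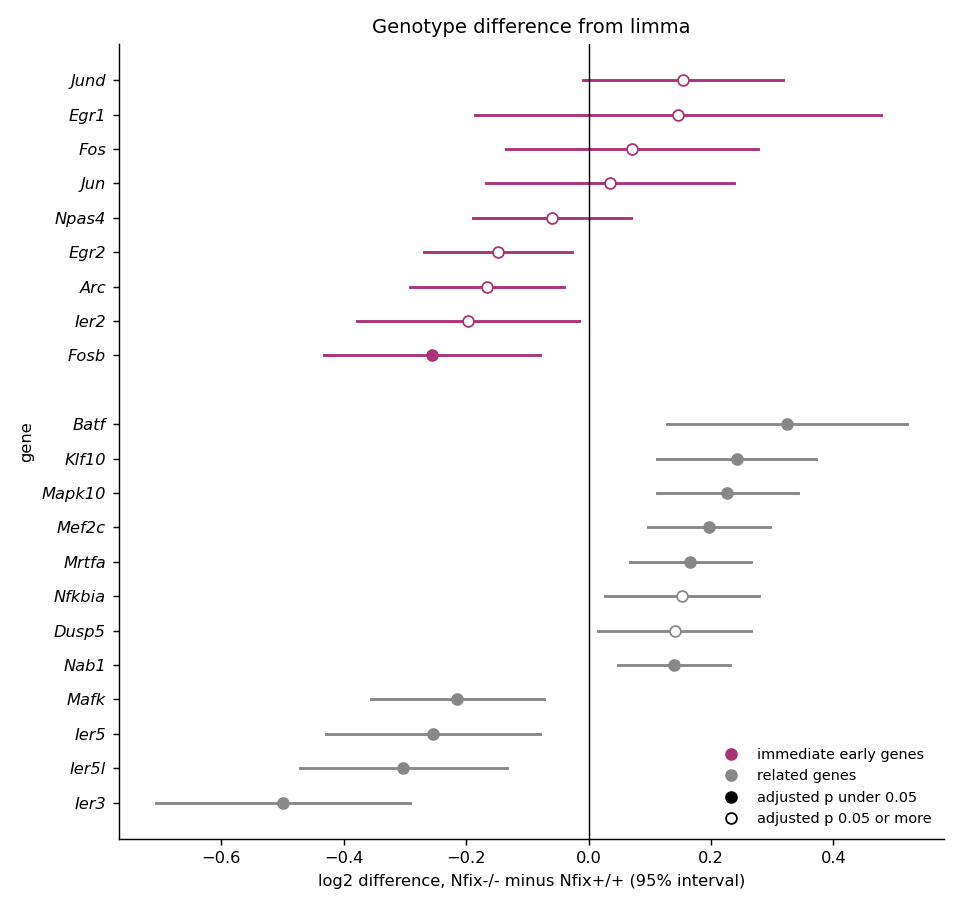
Log2 difference, *Nfix*-/- minus *Nfix*+/+, with its 95% interval from limma (horizontal axis) for the 9 members and 12 related genes (vertical axis), filled where the adjusted p was under 0.05. Among the members *Fosb* alone is filled, and *Ier3* lies farthest from 0 at -0.50.

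Between arrays of 1 genotype, *Fos* and *Egr1* went up and down together. Each value was set against the mean of its genotype, which leaves out any genotype difference. *Fos* stood 0.18 above that mean in *Nfix*-/- replicate 1 and 0.20 below it in replicate 4, and *Egr1* stood 0.42 above and 0.34 below it in the same arrays. In *Nfix*+/+ both were highest in replicate 2 and lowest in replicate 1. The order of the 8 arrays was the same for both genes: Spearman's rho was 1.00 (exact permutation within genotypes, two-sided p = 0.00347, the smallest the 576 reorderings gave, and 0.0278 after Benjamini-Hochberg over the 8 relations with *Fos*) and Pearson's r was 0.909 (p = 0.0122 by the same exact permutation, 0.0972 after adjustment). Without the 2 arrays farthest from the median of *Fos*, *Nfix*-/- replicate 1 and *Nfix*+/+ replicate 2, r was 0.971 (exact permutation, p = 0.0278, the smallest that the 36 reorderings of 6 arrays allow, and 0.111 after adjustment). Leaving out each array in turn gave r of 0.834 to 0.970, and cyclic loess 0.876. The adjusted p of rho did not pass after cyclic loess (exact permutation, 0.0556, rho of 0.881). Nor did it pass with any 1 array left out (0.0556 to 0.5 by the same exact permutation). With 7 arrays, 0.0556 is the smallest for a relation that alone has the smallest p. Of all 30176 symbols, 62 others (0.205%) followed *Fos* at least as closely as *Egr1* did.

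The other 7 relations with *Fos* did not pass by either measure. *Ier2* gave r of 0.739 and rho of 0.738 (exact permutation, p = 0.0642 and 0.0868, adjusted 0.257 and 0.343), and 0.686 for r without those 2 arrays. *Jun* gave r of 0.631 and rho of 0.619 (exact permutation, p = 0.148 and 0.128, adjusted 0.394 and 0.343), and 0.699 for r without them. *Fosb* (r of -0.0596), *Jund* (0.0823), *Arc* (-0.203), *Egr2* (0.396) and *Npas4* (0.360) had adjusted permutation p of 0.764 or more for r. These values moved with single arrays. Without *Nfix*+/+ replicate 2, the array that stood apart, r was 0.396 for *Fosb*, 0.663 for *Jund*, 0.599 for *Arc*, 0.733 for *Egr2* and 0.769 for *Npas4*, with an adjusted permutation p of 0.0556 for *Jund*, 0.153 for *Egr2* and more for the other 3. Without *Nfix*-/- replicate 4 it was 0.0098 for *Egr2*, -0.188 for *Jund* and -0.106 for *Npas4*. Over the 36 pairs of members, r had a median of 0.397, from -0.424 for *Fosb* with *Jun* to 0.909 for *Fos* with *Egr1*, and 30 pairs were above 0. After that pair the highest values were 0.858 for *Egr1* with *Ier2* and 0.841 for *Fosb* with *Arc*. The points of these values are 8 arrays that share 1 normalization, and pairs other than those with *Fos* were not tested.

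In *Nfix*-/- the members stood mostly highest in replicate 1 (6 of 9, against 36.2% of all symbols) and lowest in replicate 4 (7 of 9, against 42.0%). All 9 members lay above the mean of their genotype in *Nfix*-/- replicate 1, by a median of 0.08, where 62.6% of all symbols did by a median of 0.02. All 9 lay below it in *Nfix*-/- replicate 4, with a median of -0.10. All symbols were shifted down in that array as well, with a median of -0.03 and 36.4% of them above the mean of the genotype. In *Nfix*+/+ replicate 2 the members split: *Fos*, *Egr1*, *Jun* and *Ier2* lay above the mean of the genotype and the other 5 below it, with *Fosb* at -0.15, *Jund* at -0.14 and *Arc* at -0.13. The negative-control median was 4.60 in *Nfix*-/- replicate 4 and 4.88 in *Nfix*+/+ replicate 2, the highest of each genotype. *Fos* was the lowest of its genotype in the former array and the highest of its genotype in the latter. The relation of *Fos* to the negative controls was not tested.

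**Figure D3:**
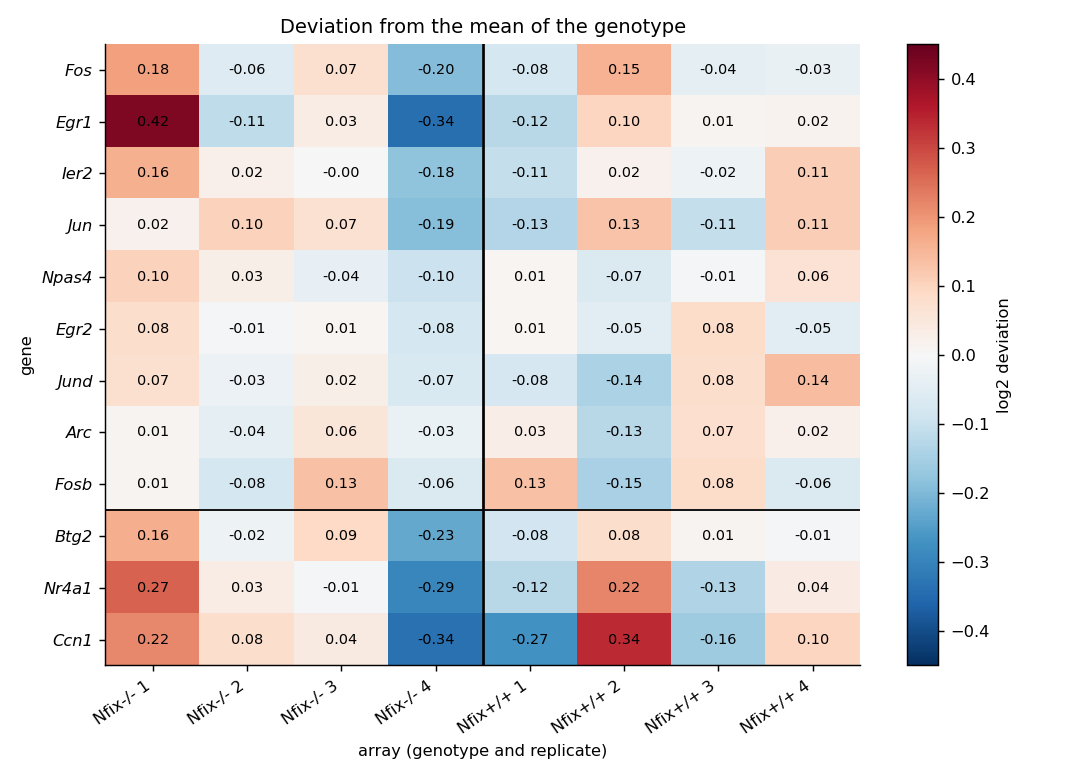
Log2 deviation of each array (columns) from the mean of its genotype for the 9 members (upper rows) and for *Btg2*, *Nr4a1* and *Ccn1* (lower rows), in red above and in blue below the mean. The column of *Nfix*-/- replicate 4 is blue in every row, and *Nfix*+/+ replicate 2 is red for *Fos*, *Egr1* and *Jun* and blue for *Fosb*, *Arc* and *Jund*.

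**Figure D4:**
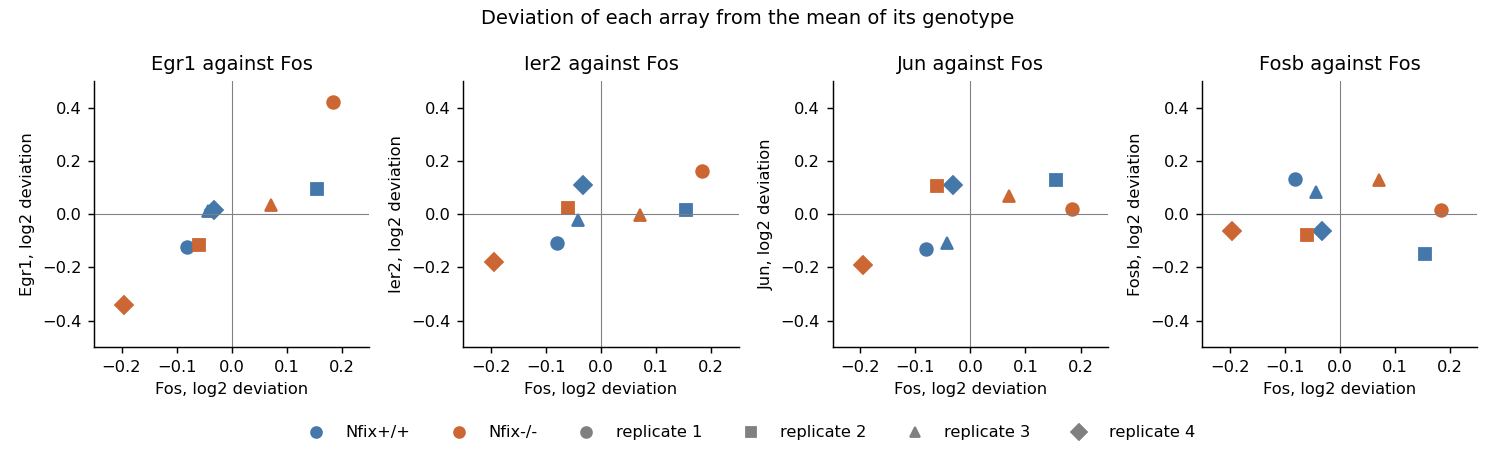
Log2 deviation from the mean of the genotype of *Egr1*, *Ier2*, *Jun* and *Fosb* (vertical axes) against that of *Fos* (horizontal axes), 1 point for each of the 8 arrays, coloured by genotype and shaped by replicate. *Egr1* rises with *Fos* in every step (rho of 1.00), whereas *Fosb* has r of -0.0596, and 0.396 without *Nfix*+/+ replicate 2.

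Markers of other cells differed between the genotypes and between arrays. The mean over 4 genes of meninges and fibroblasts separated the genotypes, at 8.62 to 8.75 in *Nfix*-/- and 8.41 to 8.48 in *Nfix*+/+. That over 4 neuron genes did so too, at 11.56 to 11.65 in *Nfix*-/- and 11.47 to 11.54 in *Nfix*+/+. Single clusters did so in 28.1% of all cases, a share that was not counted for means of several genes. None of the 4 neuron genes was called, and *Stmn2* and *Snap25* overlapped between the genotypes. Their list had a median difference of 0.0946, close to the 0.0902 over all clusters above the negative-control percentile on at least 4 arrays. Of the 4 genes of meninges and fibroblasts 3 rose: *Lum* by 0.37, *Foxc1* by 0.34 and *Col3a1* by 0.18 (adjusted p = 0.00815, 0.00424 and 0.0375 from limma). Of clusters above the negative-control percentile on at least 4 arrays, 14.1% were called higher. The endothelial gene *Cdh5* rose by 0.27 (1 of 4), the microglial *C1qc* by 0.24 (1 of 4) and the muscle genes *Myl1* and *Tnnt1* by 0.72 and 0.25 (2 of 4). In the endothelial and microglial lists only *Cldn5* (-0.02) and *Cx3cr1* (-0.006) lay below 0. The progenitor gene *Hes5*, a Notch target, fell by 0.46 (1 of 5). The progenitor genes *Sox2*, *Nes* and *Pax6* were at 0.12, 0.06 and 0.07 and *Olig2* at -0.25, and none of these passed. The mean over 4 skeletal muscle genes (*Myog*, *Myl1*, *Actc1*, *Tnnt1*), none of them above the negative-control percentile on 4 arrays, was 6.96 in *Nfix*-/- replicate 1, 6.35 to 6.55 in the other *Nfix*-/- arrays and 5.98 to 6.49 in *Nfix*+/+. The mean over 3 pericyte genes was likewise highest in *Nfix*-/- replicate 1, at 8.46 in a range of 8.26 to 8.46, against 7.95 to 8.23 in *Nfix*+/+. Of these genes only *Acta2* was highest in that array, at 7.98. *Pdgfrb* was highest in *Nfix*-/- replicate 2, at 8.78, and *Rgs5* in *Nfix*-/- replicate 4, at 8.74. The mean over 5 genes of sensory ganglia was lowest in *Nfix*+/+ replicate 2, at 8.26 against 8.50 to 8.76 in the other *Nfix*+/+ arrays, with 8.68 to 8.85 in *Nfix*-/-. Of 3 measured heat shock genes, *Hsph1* rose by 0.18 (adjusted p = 0.0154 from limma), *Dnajb1* was at 0.09 (adjusted p = 0.364) and *Hspa1a* at -0.05 (adjusted p = 0.615). Their mean was 7.90 in *Nfix*-/- replicate 4 and 8.02 to 8.05 in the other *Nfix*-/- arrays, against 7.90 to 7.95 in *Nfix*+/+. In *Nfix*-/- replicate 4 *Dnajb1* (8.13) and *Hspa1a* (6.31) were the lowest of their genotype, but *Hsph1* (9.26) was the highest. *Hspa1a* was above the negative-control percentile on 0 arrays. The part of these cells and of dissection in the genotype differences and in the pattern of *Fos* and *Egr1* was not tested.

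Among genes outside the members, the likeness of pattern was measured by Pearson's r over the 8 arrays, among 6617 named symbols above the negative-control percentile on at least 4 arrays. Nearest to the mean of *Jun* and *Jund*, the members above that level, came *Rangap1* (r of 0.988), *Ddx52*, *Abca3*, *Acadvl*, *Ctnna1*, *Notch1*, *Bcs1l*, *Hspa12a*, *Mcm6* and *Plec* (0.956), and 47 symbols in all had r over 0.9. None of the 10 is in the lists of related genes below. Nearest to *Fos* alone, a choice made after its values were seen, came *Arl2bp* (0.958), *Zfp408* and *Sptbn4*, followed by *Btg2* (0.942), an antiproliferative early gene, as the 1 related gene of the first 10.

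*Btg2*, *Nr4a1* and *Ccn1*, described here because their values were seen to vary as those of *Fos* did, are early response genes of other families. *Nr4a1* encodes an orphan nuclear receptor and was at 7.79, 7.56, 7.52 and 7.23 in *Nfix*-/- and at 7.57, 7.92, 7.56 and 7.73 in *Nfix*+/+ (r with *Fos* of 0.921). *Ccn1*, a secreted matrix protein gene driven by SRF and YAP, was at 7.48, 7.34, 7.30 and 6.93 in *Nfix*-/- and at 6.99, 7.60, 7.11 and 7.37 in *Nfix*+/+ (r of 0.861). Each was highest in replicate 1 and lowest in replicate 4 of *Nfix*-/- and highest in replicate 2 of *Nfix*+/+, as *Fos* and *Egr1* were. Of the 71 related genes measured, which are listed by role below, these 3 alone had that order and an r over 0.8. Of all symbols, 36.2% were highest of their genotype in *Nfix*-/- replicate 1 and 42.0% lowest in *Nfix*-/- replicate 4. In *Nfix*+/+ replicate 2, 23.4% of them were highest. The share of all symbols with the whole order was not counted. Over all 71, r with *Fos* had a median of 0.0419, with 40 above 0 and 31 below 0. Paralogs gave -0.124 (*Nr4a2*), 0.148 (*Nr4a3*), -0.230 (*Ccn2*) and 0.040 (*Egr4*), and the lowest was the coactivator gene *Ep300*, at -0.942. *Btg2* was at 7.51, 7.33, 7.44 and 7.12 in *Nfix*-/- and at 7.52, 7.68, 7.62 and 7.59 in *Nfix*+/+. Its groups did not overlap, and its difference of -0.26 did not pass (adjusted p = 0.0662 from limma). The differences of *Nr4a1* and *Ccn1* were -0.17 (adjusted p = 0.363) and -0.005 (adjusted p = 0.987).

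Of 76 further genes of the early response and of the factors upstream of it, 71 were measured, and 6 rose and 4 fell in *Nfix*-/- spinal cord. The 10 calls are 14.1% of the 71, beside 22.0% of all clusters. Of the 71, 39 were above the negative-control percentile on at least 4 arrays. Of all clusters at that level, 14.1% were called higher and 0.416% lower. The median difference of all 71 was 0.04, against 0.02 over all clusters and 0.09 over those above that level.

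Of 9 other AP-1 members and partners, *Batf* rose and *Mafk* fell. *Batf*, a bZIP factor that pairs with JUN proteins, was at 6.62, 6.23, 6.43 and 6.36 in *Nfix*-/- and at 6.14, 5.99, 6.05 and 6.16 in *Nfix*+/+. Its groups did not overlap, and it rose by 0.32 (standard error 0.0859, adjusted p = 0.0293 from limma), a call lost in 7 of 15 alternatives, among them the methods' t-test and 6 of the 8 arrays left out in turn (adjusted p up to 0.0712). *Mafk*, a small MAF factor, fell by 0.21 (adjusted p = 0.0390), from 6.67 to 6.86 in *Nfix*+/+ to 6.52 to 6.66 in *Nfix*-/-, a call lost in 11 of 15 alternatives, among them 7 of the 8 arrays left out (all but *Nfix*+/+ replicate 2). Of 4 further genes of the EGR family and its corepressors, *Nab1*, which binds EGR proteins and represses them, rose by 0.14 (adjusted p = 0.0378), a call lost in 12 of 15 alternatives, among them each array left out and all 3 scalings (0.0753 after cyclic loess, adjusted p = 0.194).

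Of 17 other inducible transcription factors and early response genes, *Ier3*, *Ier5* and *Ier5l* fell and *Klf10*, a factor of the TGF-beta response, rose. *Ier3*, a regulator of survival and ERK signalling, was at 5.91, 5.80, 5.52 and 5.79 in *Nfix*-/- and at 6.35, 6.17, 6.35 and 6.16 in *Nfix*+/+. Every *Nfix*-/- array lay below every *Nfix*+/+ array, and it fell by 0.50 (standard error 0.0906, adjusted p = 0.00687 from limma), to 0.707 of the *Nfix*+/+ signal. *Ier3* passed under all 15 alternatives that tested it, with differences of -0.55 to -0.42. These alternatives did not include the fold cut-off of 1.5 that the study's methods add. *Ier3* did not reach that cut-off, nor did any other of the 10 related genes called. *Ier5l* fell by 0.30 (adjusted p = 0.0221) and its paralog *Ier5*, a heat shock factor partner, by 0.25 (adjusted p = 0.0456), calls lost in 6 and 10 of 15 alternatives. *Klf10* rose by 0.24 (standard error 0.0571, adjusted p = 0.0191), a call lost in 6 alternatives, among them quantile normalization (0.19, adjusted p = 0.102) and cyclic loess (0.18, adjusted p = 0.0520). The 4 genes that fell here and among the AP-1 partners, *Mafk*, *Ier3*, *Ier5* and *Ier5l*, were above the negative-control percentile on 0 arrays, as were *Batf* and *Nab1* among those that rose, and *Klf10* was on 3.

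None of 20 inducible effectors and feedback regulators passed, with 2 at an unadjusted p under 0.05 from limma: the NF-kappaB inhibitor *Nfkbia* at 0.15 (adjusted p = 0.0808) and the ERK phosphatase *Dusp5* at 0.14 (adjusted p = 0.0999). Of 21 upstream factors and kinases, 3 rose and none fell. They were *Mapk10*, a JNK kinase of neurons, at 0.23 (standard error 0.0504, adjusted p = 0.0152), *Mef2c*, an activity-regulated factor, at 0.20 (adjusted p = 0.0155) and *Mrtfa*, the actin-regulated partner of SRF, at 0.17 (adjusted p = 0.0275). *Mapk10* was at 9.45 to 9.55 in *Nfix*-/- and at 9.17 to 9.33 in *Nfix*+/+, and *Mrtfa* at 7.78 to 7.88 and 7.64 to 7.70. *Mapk10* and *Mrtfa* were above the negative-control percentile on all 8 arrays and *Mef2c* on 1. Of clusters above it on at least 4 arrays, 14.1% were called higher and 0.416% lower. After cyclic loess *Mapk10* was at 0.12 (adjusted p = 0.133), *Mef2c* at 0.13 (adjusted p = 0.0588) and *Mrtfa* at 0.09 (adjusted p = 0.181), so these rises depended on the scaling of the arrays. *Srf* itself, at -0.04 (standard error 0.0681), and *Creb1*, at 0.02 (standard error 0.0501), did not pass.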

How the data were processed

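The values deposited by the authors were on the log2 scale, 1 per transcript cluster for each of 8 Mouse Transcriptome Arrays. Expression Console (Affymetrix) had made them from the scanner files with the gene-level SST-RMA method. This method corrects background, normalizes and summarises probes, so that differences in total RNA are not kept. The array medians still ran from 5.08 to 5.21, and no further scaling was applied. The labels give 4 arrays per genotype, more than the paper's text states, and the labels were followed. The 6732 control probe sets were left out, and 65956 clusters were tested in R 4.3.3 by the moderated linear model of limma 3.58.1 (functions lmFit and eBayes), with genotype as the 1 term and Benjamini-Hochberg adjustment over all clusters, a call being an adjusted p under 0.05. The methods' unpaired one-way comparison is an alternative below. A gene was held to be above background on an array where it exceeded the 95th percentile of 5222 negative controls. Symbols came from the platform annotation and were updated, with positions, through Entrez identifiers to RefSeq on GRCm38.p6, the assembly of mm10. 2 list genes were named through a synonym. Values centred within each genotype were correlated with those of *Fos*, with exact permutation of arrays within genotypes. The 9 relations planned became 8 because *Junb* was not measured alone.

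The members and gene lists were chosen with earlier results of these data known. Named are all members, the related genes called or, in a list without calls, the 2 of lowest p, and the 10 genes most like the mean of the members above background; others are marked. The number of arrays limits the precision. The limma step was tested on simulated data. Alternatives covered scaling, filters, the prior, array weights, the replicate block, the test, each array left out and the choice of cluster.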

Additional observations from a re-analysis of the deposited data

Results flagged for a closer look

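In 42 groups of 4 arrays (the 9 members and 12 related genes, in each genotype), 2 had 1 array far from the other 3, as chance gives in about 1 group in 20. *Mafk* was at 6.67 in *Nfix*+/+ replicate 2, against 6.85 to 6.86 in the other *Nfix*+/+ arrays. *Nfkbia* was at 7.93 in *Nfix*-/- replicate 1, against 7.75 to 7.76 in the other *Nfix*-/- arrays. No group of the 9 members was so marked.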

How the results depend on the processing

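The count of members called between genotypes was 1 and became 0 after median scaling, quantile normalization, the methods' t-test, the filter on dim clusters (which left *Jun* and *Jund* to test) and with the fold cut-off of 1.5. It was 2 with array weights (*Fosb* and *Arc*) and 3 after cyclic loess (*Fosb*, *Egr2* and *Arc*), and 0 to 2 on leaving out each array. At an unadjusted p under 0.05, 4 members were counted in limma and 3 by the methods' t-test. The count of related genes, 10, was 6 after median scaling, 5 after quantile normalization (3 of them among the 10), 3 with the filter, 14 with array weights, 12 with the trended prior, 7 after cyclic loess, 9 by the methods' t-test and 3 to 8 on leaving out each array. The cause of these changes was not tested. Whether the replicate numbers pair the samples is not known. The correlation of deviations was 0.470, -0.151, 0.0401 and -0.0755 for numbers 1 to 4. No *Nfix*-/- array was closest to the *Nfix*+/+ array of its own number. These values cannot decide pairing, because deviations of whole arrays also carry differences in array quality. With the replicate block 1 member (*Fosb*) and 2 related genes were called. No relation with *Fos* passed by Pearson's r after adjustment (1, *Egr1*, at an unadjusted p under 0.05 and 1 by Spearman's rho, lost after cyclic loess), and uncentred values gave 1. *Jun* turned to -0.0507 after quantile normalization and -0.0584 after cyclic loess, and ran from -0.00828 to 0.0987 on leaving out each array. Of the correlations with *Fos*, that of *Fosb* turned to 0.512 without the 2 farthest arrays and 0.0715 after quantile normalization (-0.334 to 0.396 on leaving out each array). That of *Arc* turned to 0.713 without those 2 arrays (-0.457 to 0.599), and that of *Egr2* to -0.0052 uncentred. Those of *Jund* and *Npas4* ran from -0.188 to 0.663 and from -0.135 to 0.769 on leaving out each array. Of the differences of members and related genes under all alternatives, 234 kept direction and call, 78 lost the call, 4 gained it and 4 turned. Most members lay within the range of the negative controls, which limits what these arrays can show of them.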
